A study of Mus musculus with 12 samples.

Results

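The genes described here are 43 genes of DNA replication and S phase, out of 49997 genes in the count tables: the factors that license replication origins, the replication fork, the supply of deoxynucleotides, the regulators of S phase entry and a histone chaperone of the fork. They were chosen by name from these classes, with earlier results of these data known, and grouped into 9 role lists. Poly(A) RNA was sequenced from sorted mouse thymocytes of 4 groups with 3 libraries each. DP KO and DP WT cells are CD4 and CD8 double positive (DP) thymocytes of genotype Satb1 KO and WT, and CD4 KO and CD4 WT cells are the thymic CD4 cells of those genotypes. The knockout is an induced conditional one, and every group, WT included, is labelled as treated with tamoxifen, the drug that switches on an inducible Cre. The sources used here name neither the Cre driver, the deleted part of Satb1 and the interval after tamoxifen, nor the age and number of mice. They do not say whether each library comes from its own mouse, so the p-values measure the spread between libraries, which may be technical.

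A cell prepares to replicate in G1, when ORC, CDC6 and CDT1 load the ring-shaped MCM2-7 helicase onto origins, and it starts when CDC45 and the GINS complex join that ring to make the moving helicase. DNA polymerase alpha and its primase begin each strand, the RFC complex loads the PCNA clamp, polymerases delta and epsilon extend the strands, and FEN1 and LIG1 join the lagging strand pieces; E2F proteins and cyclin E drive this set of genes at the G1/S boundary. In the thymus, division is mostly a feature of stages up to the early DP blast, and newly made CD4 cells are largely resting. In bulk RNA, fewer cells in S phase and less of these transcripts per cell cannot be told apart.

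Assigned counts ranged between 22790504 in DP WT replicate 3 and 62422640 in CD4 KO replicate 2, and the lowest count of any member in any library was 154, for Orc1, so every member was tested in every comparison. Satb1 itself, at mm10 chr17:51736187-51833290 on the minus strand, was measured at 2569, 2908 and 2499 CPM (read counts scaled to the library size) in the DP KO libraries, against 3777, 3763 and 3788 CPM in the DP WT libraries. In CD4 cells it was at 1483, 1581 and 1476 CPM in KO libraries, against 3501, 3304 and 2949 CPM in WT libraries. The KO libraries lay below the WT libraries at both stages. On the log2 scale the difference was -0.56 ± 0.08 in DP cells (SE, adjusted p = 0.000539) and -1.12 ± 0.08 in CD4 cells (adjusted p = 7.89e-06); these and all later adjusted p-values come from edgeR's quasi-likelihood test with Benjamini-Hochberg adjustment over all genes tested, with 3 libraries in each group, and genes under 0.05 are called. Since Satb1 transcripts remained, and the deleted part is not stated, these values do not tell how many cells lost the protein. Within groups, single libraries were shifted across the members: DP KO replicate 2 was the lowest of the DP KO libraries for 41 of the 43, CD4 WT replicate 2 was the lowest of the CD4 WT libraries for 39, and CD4 WT replicate 3 was the highest of them for 38. Over all genes, DP KO replicate 3 differed most from the other DP KO libraries (chi-square per degree of freedom 42.1 and 50.8, against 16.8 between replicates 1 and 2). Zbtb7b, a transcription factor gene of the CD4 lineage, was at 1.03, 7.19 and 0.258 CPM in DP KO replicates 1, 2 and 3, and at 5.17, 2.61 and 2.35 CPM in DP WT replicates 1, 2 and 3. Xist, the transcript of the inactive X chromosome, was at 0.82 and 0.267 CPM in DP WT replicates 1 and 2 and at 189 to 611 CPM in the other 10 libraries; the labels give no sex.

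As a group, the replication genes were lower in CD4 WT cells than in the cells of the other 3 groups. The geometric mean of the 43 members was 78.8 ± 9.11 CPM in DP KO cells, 80.7 ± 4.03 CPM in DP WT cells, 67.8 ± 2.46 CPM in CD4 KO cells and 32.8 ± 4.38 CPM in CD4 WT cells (SD, n = 3 each). By library it ran between 68.3 and 85.2 CPM in DP KO cells and between 76.6 and 84.6 CPM in DP WT cells, which overlap. It ran between 65.5 and 70.4 CPM in CD4 KO cells and between 28.4 and 37.1 CPM in CD4 WT cells, which do not overlap. The CD4 KO level was 86.0% of the DP KO level, and the CD4 WT level was 40.6% of the DP WT level. Per kilobase of gene length, Pcna, the sliding clamp, was the most abundant member in every group, with group means, as CPM per kilobase, of 417 in DP KO, 439 in DP WT, 367 in CD4 KO and 204 in CD4 WT cells. Orc1, the largest subunit of the origin recognition complex, was the least abundant, with 2.16 in DP KO, 1.49 in DP WT, 1.78 in CD4 KO and 0.562 in CD4 WT on that scale.

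**Figure D1:**
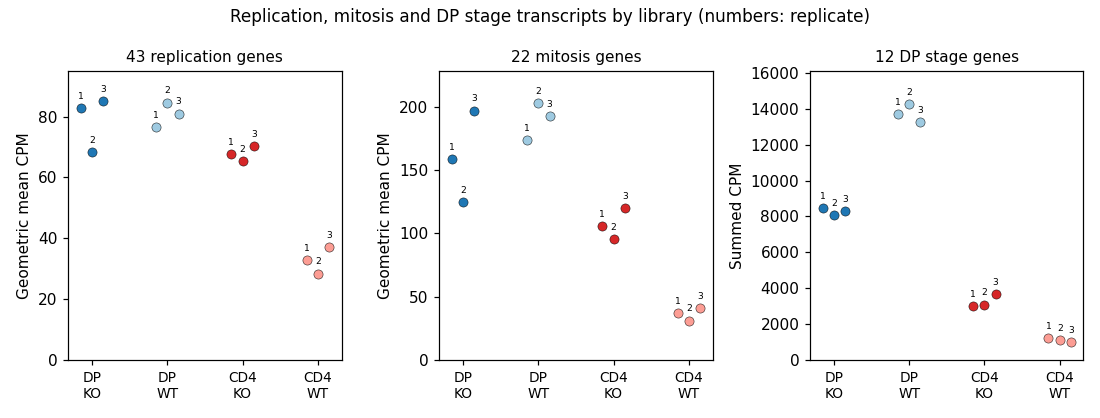
Geometric mean CPM of the 43 replication genes (left) and of 22 mitosis genes (middle) and summed CPM of 12 DP stage genes (right), with 1 point per library, numbered by replicate, in the 4 groups on the x axis. For the replication genes the CD4 KO libraries lie at 65.5 to 70.4 CPM and the CD4 WT libraries at 28.4 to 37.1 CPM, while the DP KO and DP WT libraries overlap.

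The first question the design poses is what loss of Satb1 does to these genes in CD4 cells. In CD4 KO against CD4 WT cells, 41 of the 43 members rose and 0 fell, against 20.9% of 17316 genes tested that rose and 18.6% that fell. The median log2 fold change of the members was 0.99, and that of all genes 0.00. Among the members, 21 rose by a log2 fold change of at least 1, against 2408 of 17316 genes tested that were called and changed that much in either direction. The members' values ran between -0.07 and 1.65. Every CD4 KO library lay above every CD4 WT library for 42 of the 43 members (28.2% of all genes tested) and below them for 0 (23.2%). No member was lower at an unadjusted p under 0.05, nor called lower by DESeq2 or limma-voom. Rag1, Rag2 and other genes of the DP stage moved with these genes: 10 of 12 such markers rose in CD4 KO cells, their summed level was 3030 to 3678 CPM in CD4 KO libraries and 992 to 1227 CPM in CD4 WT libraries, and Rag1 rose by 1.89 and Rag2 by 1.22 on the log2 scale. Of 12 markers of mature CD4 cells 9 fell, with a summed level of 2198 to 2436 CPM in CD4 KO libraries and 5228 to 5443 CPM in CD4 WT libraries. No marker of either list was at 0 in any of these groups, and their part in the result was not tested.

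All 5 licensing genes rose in CD4 KO cells, with a median log2 fold change of 1.24. Orc1 had the largest change of the 43: it was at 14.0, 12.7 and 16.9 CPM in CD4 KO libraries, against 4.30, 4.35 and 5.07 CPM in CD4 WT libraries. The lowest KO library was well above the highest WT library, and the log2 fold change was 1.65 ± 0.15 (adjusted p = 3.47e-05). Cdc6, the ATPase that completes the loading complex, was at 65.0, 63.1 and 62.5 CPM in CD4 KO libraries, against 22.8, 18.2 and 24.9 CPM in CD4 WT libraries. Its KO libraries were nearly equal to each other, and the log2 fold change was 1.51 ± 0.11 (adjusted p = 1.14e-05). Cdt1, which brings the MCM ring to the origin, was the most abundant gene of the list at 82.1, 86.1 and 89.1 CPM in CD4 KO libraries, against 48.2, 40.2 and 57.8 CPM in CD4 WT libraries, and rose by 0.80 ± 0.12 (log2, adjusted p = 0.000701). Gmnn encodes geminin, the protein that binds CDT1 and prevents renewed licensing; it rose as well, by 1.24 ± 0.11 (adjusted p = 2.72e-05). The increase thus covered the loaders and their inhibitor. Orc6, a small ORC subunit, rose by 0.87 ± 0.17 (adjusted p = 0.00269).

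All 6 subunits of the MCM2-7 helicase rose, by log2 fold changes of 0.51 (Mcm4) to 1.28 (Mcm6). Mcm6 was at 335, 337 and 368 CPM in CD4 KO libraries, against 135, 120 and 167 CPM in CD4 WT libraries, so the groups were far apart (1.28 ± 0.12, adjusted p = 3.71e-05). Mcm5 was at 224, 237 and 240 CPM in CD4 KO libraries, against 124, 103 and 127 CPM in CD4 WT libraries (0.96 ± 0.09, adjusted p = 3.34e-05). Mcm7, the subunit with the highest mean CPM over all 12 libraries, was at 297, 319 and 331 CPM in CD4 KO libraries, against 157, 136 and 170 CPM in CD4 WT libraries (1.01 ± 0.09). The subunits work as a single ring, and Mcm2 (0.58 ± 0.08), Mcm3 (0.93 ± 0.09) and Mcm4 (0.51 ± 0.10) were called as well. Whether the subunits differ in their rise was not tested.

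The genes that turn the loaded ring into a working helicase rose with a median of 1.37, and all 6 were called. Mcm10, a protein needed for origin firing, was at 48.8, 47.6 and 48.9 CPM in CD4 KO libraries, against 14.8, 12.4 and 19.3 CPM in CD4 WT libraries. The KO libraries were nearly equal, and the log2 fold change was 1.63 ± 0.15 (adjusted p = 3.29e-05). Cdc45 rose by 1.36 ± 0.14, Gins1 by 1.39 ± 0.13 and Gins2 by 1.58 ± 0.19. The other two GINS subunits moved less, Gins3 by 0.74 ± 0.11 and Gins4 by 0.41 ± 0.08 (adjusted p = 0.00316).

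The clamp and its loader rose in all 5 members, with a median of 0.84. Pcna was at 458, 426 and 503 CPM in CD4 KO libraries, against 248, 203 and 318 CPM in CD4 WT libraries (0.83 ± 0.15, adjusted p = 0.00209). The CD4 WT libraries differed among themselves, but the groups did not overlap. Rfc4, a small subunit of the loader, was at 29.8, 25.6 and 34.7 CPM in CD4 KO libraries, against 11.2, 12.6 and 14.6 CPM in CD4 WT libraries (1.21 ± 0.14, adjusted p = 0.000159). Rfc2, another small subunit, rose by 0.41 ± 0.06, the least of the list, and averaged 78.8 ± 3.65 CPM in CD4 KO cells and 58.2 ± 1.48 CPM in CD4 WT cells (SD, n = 3 each). Rfc3 rose by 0.84 ± 0.11 and Rfc5 by 0.86 ± 0.10.

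Of the 7 genes of the replicative polymerases and primase, 6 rose. Pola1, the catalytic subunit of polymerase alpha, was at 80.1, 73.7 and 91.3 CPM in CD4 KO libraries, against 33.5, 28.3 and 33.6 CPM in CD4 WT libraries (1.34 ± 0.11, adjusted p = 1.46e-05). Pole, the catalytic subunit of polymerase epsilon, was at 85.1, 80.6 and 89.0 CPM in CD4 KO libraries, against 33.1, 32.2 and 40.0 CPM in CD4 WT libraries (1.25 ± 0.10, adjusted p = 1.37e-05). Pold1, the catalytic subunit of polymerase delta, was at 157, 159 and 133 CPM in CD4 KO libraries, against 88.2, 73.3 and 87.3 CPM in CD4 WT libraries (0.83 ± 0.10). All 3 catalytic subunits thus rose with no overlap between the groups. Prim1 and Prim2, the primase subunits, rose by 1.22 ± 0.13 and 0.91 ± 0.11, and Pola2, the accessory subunit of polymerase alpha, by 0.62 ± 0.08. The exception was Pole2, the second subunit of polymerase epsilon, at 18.4, 16.6 and 17.4 CPM in CD4 KO libraries, against 18.7, 16.0 and 19.5 CPM in CD4 WT libraries. Its groups overlap, and the difference was -0.07 ± 0.11 on the log2 scale, with a 95% interval of -0.32 to 0.18 (adjusted p = 0.676). Pole2 shares 245 exon bases with a further annotated gene, Gm49384, on the same strand, so its count may hold or miss reads of that gene.

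The lagging strand genes, Fen1, Lig1 and Rpa2, all rose, and Lig1, the ligase that seals Okazaki fragments, had the smallest adjusted p of the 43. It was at 192, 185 and 186 CPM in CD4 KO libraries, against 66.8, 57.9 and 71.2 CPM in CD4 WT libraries (1.50 ± 0.09, adjusted p = 3.06e-06). Fen1, the flap nuclease, rose by 0.85 ± 0.08 and Rpa2, a subunit of the single-strand binding protein, by 0.69 ± 0.10.

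The 5 genes of nucleotide supply had the highest median of the 9 lists, 1.44, and each rose by at least 1 on the log2 scale. Rrm2, the small subunit of ribonucleotide reductase, was at 233, 204 and 265 CPM in CD4 KO libraries, against 74.4, 62.3 and 93.7 CPM in CD4 WT libraries (1.59 ± 0.15, adjusted p = 4.69e-05). Tyms, thymidylate synthase, was at 65.3, 57.7 and 72.8 CPM in CD4 KO libraries, against 21.8, 16.9 and 25.3 CPM in CD4 WT libraries (1.60 ± 0.15, adjusted p = 3.91e-05). Tk1, the salvage kinase for thymidine, was at 41.5, 41.6 and 42.1 CPM in CD4 KO libraries, against 16.1, 13.3 and 16.7 CPM in CD4 WT libraries (1.42 ± 0.10, adjusted p = 9.52e-06). The de novo and the salvage route to thymidine nucleotides therefore both had higher transcript levels in KO cells. Dut, the dUTPase that keeps uracil out of DNA, rose by 1.44 ± 0.16, and Rrm1, the large subunit of the reductase, by 1.32 ± 0.12.

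Among the regulators of S phase entry, E2f2 was at 171, 150 and 199 CPM in CD4 KO libraries, against 92.9, 77.1 and 87.9 CPM in CD4 WT libraries (0.99 ± 0.11, adjusted p = 0.000133). Ccne2, a cyclin E, was at 16.3, 14.7 and 13.8 CPM in CD4 KO libraries, against 6.39, 3.94 and 7.31 CPM in CD4 WT libraries (1.33 ± 0.21, adjusted p = 0.000914). E2f1 rose by 0.95 ± 0.14. Both cyclin E genes were called, but Ccne1 moved less (0.36 ± 0.10, adjusted p = 0.0215) and its call was lost without CD4 KO replicate 1 (adjusted p = 0.0553), CD4 KO replicate 2 (0.0585), CD4 WT replicate 1 (0.0748) or CD4 WT replicate 2 (0.0879). The chromatin assembly factor CAF-1, which places histones behind the fork, gave unequal values for its subunits. Chaf1a was at 64.5, 62.9 and 68.5 CPM in CD4 KO libraries, against 24.5, 20.0 and 30.6 CPM in CD4 WT libraries (1.37 ± 0.14, adjusted p = 6.49e-05). Chaf1b was at 36.6, 37.3 and 36.9 CPM in CD4 KO libraries, against 32.5, 30.7 and 34.4 CPM in CD4 WT libraries, which do not overlap. Its difference of 0.16 ± 0.08 (95% interval -0.01 to 0.34) was not called (adjusted p = 0.123).

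**Figure D2:**
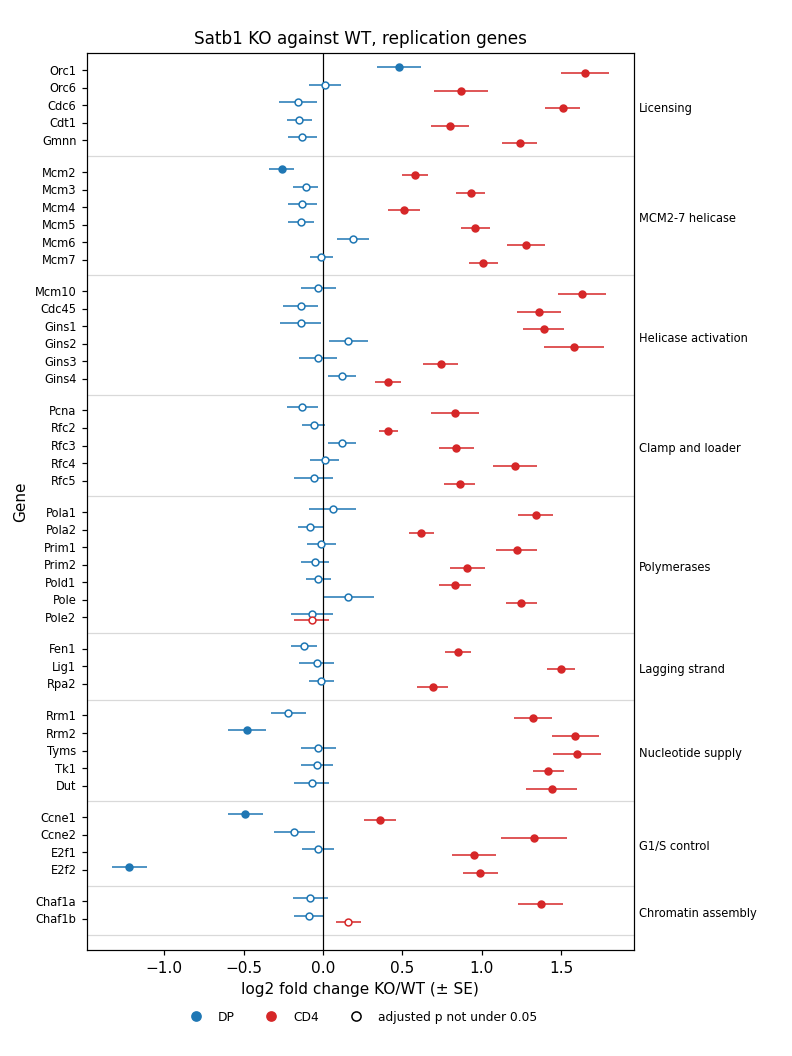
Log2 fold change of each of the 43 members in KO against WT cells (x axis, ± SE), grouped by role down the page, with CD4 and DP cells in different colours and open symbols where the adjusted p was not under 0.05. In CD4 cells 41 members lie above 0 and are called, whereas in DP cells most lie near 0 and E2f2 lies at -1.22.

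Since these genes moved together, their promoters were read for E2F words: TTTCCCGC, TTTCGCGC, TTTGCCGC and TTTGGCGC on either strand. RefSeq windows (build GRCm38.p6, 250 bases before to 50 bases after the start site) matched 34 of the 43 members. At least 1 word was in 14 of these 34 members (41.2%), against 2.6% of all 27025 genes with a window. By role it was in 4 of 5 MCM genes, 3 of 4 licensing genes, 3 of 5 polymerase genes and none of the 5 nucleotide supply genes, in these windows. The members held 20 words, between -165 and 40 relative to the start site, of which 1 overlapped a CCAAT or TTTGAA word. The CCAAT word of NF-Y was in 55.9% of the members and 41.1% of all genes, and the TTTGAA word of the cell cycle homology region in 14.7% of the members and 20.2% of all genes, again on either strand. A word is a match of letters and not a bound site. Only exact matches were counted, so windows with a near match count as having no E2F word. GTTCCCGC in the windows of Chaf1a, Prim1 and Rrm1 is an example. The members with an E2F word had a median log2 fold change of 0.97 in CD4 KO cells (13 of 14 rose) and the matched members without it 1.08 (19 of 20 rose). Shown here, with the E2F words in capitals, are the windows of the member with most words (Mcm6, 3 words, the first pair overlapping), of an MCM gene with words just after the start (Mcm3), of the member with the largest change in CD4 cells (Orc1) and of E2f2, the member that differed most between the stages. Each runs 5′ to 3′ on the strand of its gene, with the start site at base 251; they lie at chr1:128359656-128359955 (minus strand) for Mcm6, chr1:20820263-20820562 (minus strand) for Mcm3, chr4:108579204-108579503 (plus strand) for Orc1 and chr4:136172024-136172323 (plus strand) for E2f2.
Mcm6: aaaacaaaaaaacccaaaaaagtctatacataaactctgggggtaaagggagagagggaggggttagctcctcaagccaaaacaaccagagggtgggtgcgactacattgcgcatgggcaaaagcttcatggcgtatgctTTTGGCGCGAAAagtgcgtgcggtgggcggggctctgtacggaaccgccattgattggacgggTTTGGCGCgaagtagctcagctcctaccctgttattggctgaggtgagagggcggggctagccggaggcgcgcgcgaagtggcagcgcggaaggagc
Mcm3: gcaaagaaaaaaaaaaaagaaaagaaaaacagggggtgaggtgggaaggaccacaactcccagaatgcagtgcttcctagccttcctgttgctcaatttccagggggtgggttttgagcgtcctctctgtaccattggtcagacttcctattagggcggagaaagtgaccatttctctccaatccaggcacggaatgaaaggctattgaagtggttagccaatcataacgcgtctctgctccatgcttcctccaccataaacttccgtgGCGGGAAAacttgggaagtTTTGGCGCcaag
Orc1: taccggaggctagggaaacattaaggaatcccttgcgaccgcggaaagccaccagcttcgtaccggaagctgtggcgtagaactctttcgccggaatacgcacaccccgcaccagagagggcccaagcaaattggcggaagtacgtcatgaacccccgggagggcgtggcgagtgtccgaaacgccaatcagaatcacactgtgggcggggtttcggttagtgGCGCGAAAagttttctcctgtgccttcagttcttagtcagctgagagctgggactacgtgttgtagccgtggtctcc
E2f2: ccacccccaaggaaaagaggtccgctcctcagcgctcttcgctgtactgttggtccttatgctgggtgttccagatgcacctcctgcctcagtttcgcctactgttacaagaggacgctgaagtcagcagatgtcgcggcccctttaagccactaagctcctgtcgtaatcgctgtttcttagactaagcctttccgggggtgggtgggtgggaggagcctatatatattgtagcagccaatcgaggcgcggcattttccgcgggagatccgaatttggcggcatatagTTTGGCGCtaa
The words of Mcm6 start at -110, -106 and -47, those of Mcm3 at 20 and 39, that of Orc1 at -27 and that of E2f2 at 40, counted from the start site.

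In DP cells the same comparison gave few calls. Of the 43 members, 1 rose (Orc1) and 4 fell (E2f2, Ccne1, Rrm2 and Mcm2) in DP KO against DP WT cells, against 16.7% of 16776 genes tested that rose and 14.1% that fell. The median log2 fold change of the members was -0.06 (0.01 over all genes), and for 38 of the 43 the 95% interval lay within ±0.5, which bounds a change in these 3 against 3 libraries without showing that there was none. All DP KO libraries lay above all DP WT libraries for 1 member (28.2% of all genes tested) and below them for 4 (18.2%).

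E2f2, an activator E2F, had the largest change in DP cells. It was at 291, 228 and 305 CPM in DP KO libraries, against 587, 653 and 618 CPM in DP WT libraries. The groups were far apart (-1.22 ± 0.11 on the log2 scale, adjusted p = 3.39e-05), and the gene stayed called under all 15 alternative settings. Ccne1 was at 27.8, 21.9 and 25.7 CPM in DP KO libraries, against 31.0, 34.8 and 36.8 CPM in DP WT libraries (-0.49 ± 0.11, adjusted p = 0.00794). Rrm2 was at 361, 266 and 379 CPM in DP KO libraries, against 414, 484 and 453 CPM in DP WT libraries (-0.48 ± 0.12, adjusted p = 0.0166). For both genes every KO library lay below every WT library, and the DP KO replicate 2 value was the lowest. Mcm2 was at 269, 225 and 247 CPM in DP KO libraries, against 270, 308 and 277 CPM in DP WT libraries, where the highest KO library came close to the lowest WT library (-0.26 ± 0.08, adjusted p = 0.0442, and 0.0650 with the batch number as a block). Orc1 went the other way, at 17.1, 14.9 and 20.7 CPM in DP KO libraries, against 11.1, 11.7 and 13.7 CPM in DP WT libraries (0.48 ± 0.14, adjusted p = 0.0273). Rrm1, the sixth in rank, was not called: it was at 324, 262 and 356 CPM in DP KO libraries, against 333, 355 and 371 CPM in DP WT libraries (-0.22 ± 0.11, adjusted p = 0.151).

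Apart from that of E2f2, these DP calls depended on which libraries were used. With DP WT replicate 3, the only DP WT library with Xist, as the sole DP WT library, E2f2 alone stayed called, with 1 member lower and 0 higher (Rrm2 adjusted p = 0.160, Orc1 0.419, Mcm2 0.320 and Ccne1 0.0572). Orc1 lost its call without DP KO replicate 1 (adjusted p = 0.0576), DP KO replicate 3 (0.0509), DP WT replicate 1 (0.110) or DP WT replicate 2 (0.109). Rrm2 lost its call without DP WT replicate 2 (adjusted p = 0.0629). Mcm2 kept its call only when DP KO replicate 1 was the library left out. Within the labelled batches, the median log2 ratio of the 43 members in DP KO over DP WT libraries was 0.12, -0.30 and 0.09 in batches 1, 2 and 3, the negative one being that of DP KO replicate 2, so the batches differ in sign. In CD4 cells the same medians were 0.95, 1.12 and 0.91, all of 1 sign. Without DP KO replicate 2, 2 members were higher and 3 lower in DP KO cells. Markers of the DP stage moved here too: 8 of 12 fell, with a summed level of 8086 to 8477 CPM in DP KO libraries and 13261 to 14264 CPM in DP WT libraries, and their part in the result was not tested.

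By role, the DP effects were small in every list. The median log2 fold change was -0.13 for licensing, -0.12 for the MCM ring, -0.03 for helicase activation, -0.06 for the clamp and loader, -0.03 for the polymerases, -0.04 for the lagging strand, -0.07 for nucleotide supply and -0.08 for chromatin assembly. It was lowest for G1/S control, at -0.34, where E2f2 and Ccne1 fell while Ccne2 (-0.18 ± 0.13) and E2f1 (-0.03 ± 0.10) were not called. The G1/S control genes were also the list with the lowest CD4 KO level relative to DP WT cells, 57.5% as a geometric mean, where the polymerases were at 94.3%. Mcm6, which carries 3 E2F words, was at 363, 303 and 400 CPM in DP KO libraries, against 289, 311 and 302 CPM in DP WT libraries. Those groups overlap, and the difference of 0.19 ± 0.10 was not called (adjusted p = 0.170). Pcna was at 524, 448 and 603 CPM in DP KO libraries, against 535, 587 and 537 CPM in DP WT libraries, again with overlap (-0.13 ± 0.10, adjusted p = 0.392). Lig1 was at 256, 190 and 233 CPM in DP KO libraries, against 204, 247 and 222 CPM in DP WT libraries (-0.04 ± 0.11, adjusted p = 0.836). For each of these 3 genes DP KO replicate 2 was the lowest of the DP KO libraries.

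The difference between the KO effects in CD4 and DP cells was tested directly, as an interaction over all 12 libraries. It was positive and called for 40 of the 43 members and negative for 0, against 14.4% of 18431 genes tested that were positive and 13.4% that were negative; the members' median was 1.10, against 0.03 over all genes. No member was negative at an unadjusted p under 0.05, nor called so by DESeq2 or limma-voom. E2f2 had the largest difference, 2.22 ± 0.17 (adjusted p = 1.15e-06): it rose in CD4 KO cells and fell in DP KO cells. Rrm2, with 2.07 ± 0.22 (adjusted p = 1.57e-05), likewise rose in CD4 KO cells and fell in DP KO cells. For Cdc6 (1.68 ± 0.18), Mcm10 (1.66 ± 0.20) and Lig1 (1.55 ± 0.15) the KO effect in DP cells was not called. The members not called were Pole2 (0.01 ± 0.17, adjusted p = 0.962), Gins4 (0.31 ± 0.11, adjusted p = 0.0591, and 0.0445 with the batch block) and Chaf1b (0.26 ± 0.11, adjusted p = 0.0919). Across the 43 members, the log2 fold changes in DP and in CD4 cells had a Spearman rho of 0.13; the comparisons share no library, but members share depth and libraries within each.

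**Figure D3:**
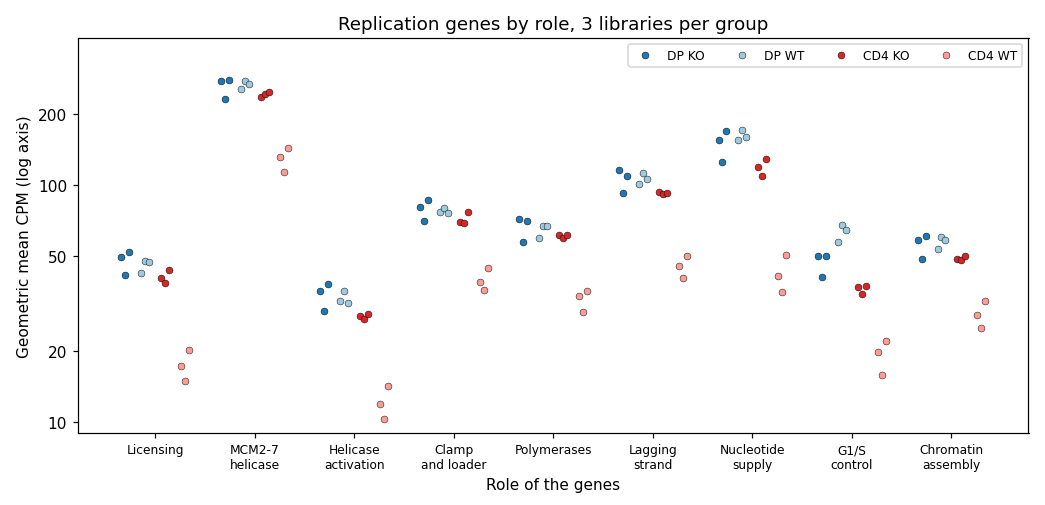
Geometric mean CPM (log axis) of the members of each of the 9 role lists on the x axis, with 1 point per library and a colour for each of the 4 groups. In every list the 3 CD4 KO points lie above the 3 CD4 WT points; for G1/S control the DP KO points, at 40.8 to 50.1 CPM, also lie below the DP WT points, at 57.7 to 67.8 CPM.

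The next comparison was between the stages. In CD4 WT against DP WT cells, 42 of the 43 members were lower and 0 were higher, against 27.1% of 17369 genes tested that were lower and 28.0% that were higher. No member was higher at an unadjusted p under 0.05, nor called so by DESeq2 or limma-voom. The median log2 fold change was -1.24. Among the members 33 were called and differed by at least 1, against 4426 of 17369 genes tested, in either direction. Every CD4 WT library lay below every DP WT library for 42 members (29.5% of all genes tested) and above them for 0 (33.3%). E2f2 differed most, at 92.9, 77.1 and 87.9 CPM in CD4 WT libraries, against 587, 653 and 618 CPM in DP WT libraries (-2.88 ± 0.09, adjusted p = 6.51e-09). Rrm2 was next, at 74.4, 62.3 and 93.7 CPM in CD4 WT libraries, against 414, 484 and 453 CPM in DP WT libraries (-2.58 ± 0.14, adjusted p = 1.57e-07). Tyms (-2.10 ± 0.13) and Ccne2 (-1.91 ± 0.21) followed. The nucleotide supply genes, with a median of -1.79, and the helicase activators, with -1.76, were the lists with the lowest medians, and the clamp and loader genes, with -1.07, were among the least changed. Pole2 was again the exception, at 18.7, 16.0 and 19.5 CPM in CD4 WT libraries, against 14.0, 15.5 and 17.1 CPM in DP WT libraries (0.19 ± 0.12, adjusted p = 0.203).

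In the KO cells the stage difference was smaller, which is the same contrast as the interaction tested above. In CD4 KO against DP KO cells, 3 members were lower and 0 higher, against 7.82% of 16910 genes tested that were lower and 13.9% that were higher, and the median log2 fold change was -0.18. The 3 were E2f2 (-0.63 ± 0.14, adjusted p = 0.0146), Gmnn (-0.34 ± 0.10, adjusted p = 0.0446) and Prim1, the catalytic primase subunit (-0.33 ± 0.10, adjusted p = 0.0476). Gmnn was at 39.6, 38.7 and 45.0 CPM in CD4 KO libraries, against 55.2, 47.4 and 57.1 CPM in DP KO libraries. The groups were close but did not overlap. E2f2 was at 171, 150 and 199 CPM in CD4 KO libraries, against 291, 228 and 305 CPM in DP KO libraries. Rrm2, at 233, 204 and 265 CPM in CD4 KO libraries, against 361, 266 and 379 CPM in DP KO libraries, came just short of a call (-0.48 ± 0.15, adjusted p = 0.0521). The groups of Rrm2 lie next to each other with no overlap. Mcm4 (-0.00 ± 0.10) and Mcm6 (-0.00 ± 0.11) showed the smallest differences. At an unadjusted p under 0.05, 13 members were lower and 0 higher, against 2456 lower and 3350 higher of all 16910 genes tested. DESeq2 called 9 members lower and 0 higher, and the share of all genes called by it was not counted. Every CD4 KO library lay below every DP KO library for 13 members (20.9% of all genes tested) and above them for 0 (19.7%). The 95% interval lay within ±0.5 for 29 of the 43 members and within ±1 for all 43. The count of lower members depended on the fit. With the batch number as a block, 22 members were lower and 1 was higher (Pole2), and without DP KO replicate 2, 17 were lower. The share of all genes called was not counted for these refits, so the growth may not be particular to the members. Leaving out any other single library gave 0 to 6 members lower: 0 without CD4 KO replicate 1, 1 without CD4 KO replicate 2, DP KO replicate 1 or DP KO replicate 3, and 6 without CD4 KO replicate 3. The within-batch medians were -0.29, -0.07 and -0.29 in batches 1, 2 and 3.

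**Figure D4:**
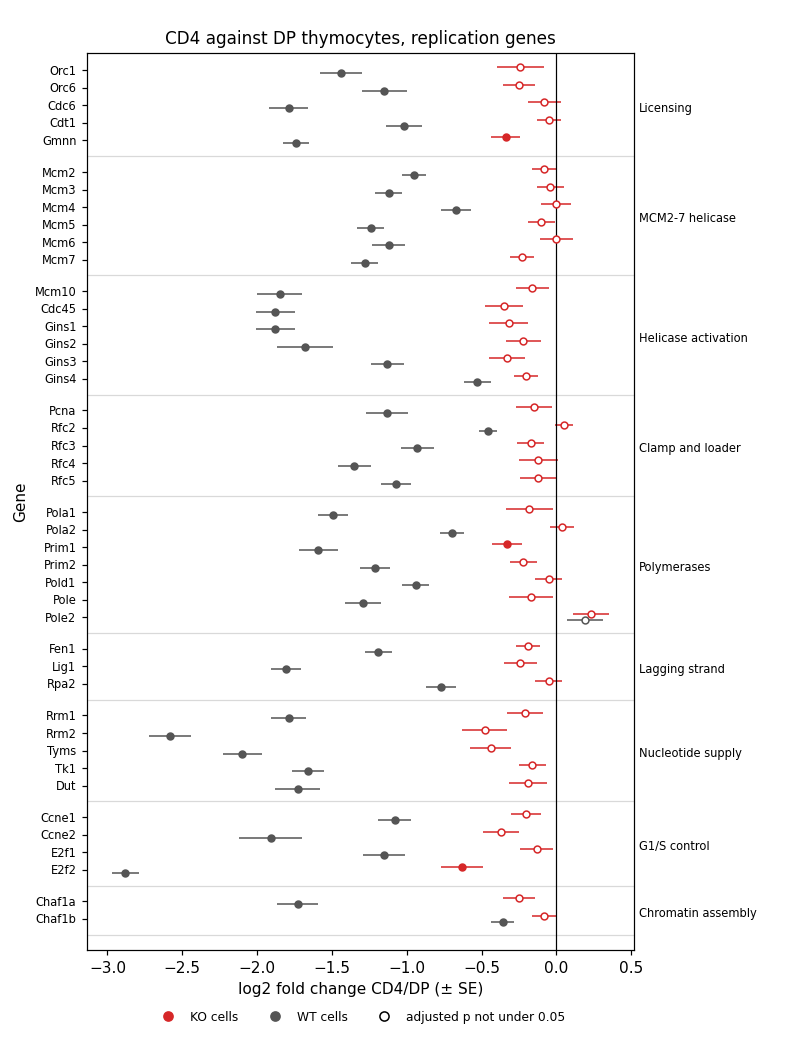
Log2 fold change of each member in CD4 against DP cells (x axis, ± SE), grouped by role down the page, with KO cells in red, WT cells in grey and open symbols where the adjusted p was not under 0.05. The WT values run down to -2.88 for E2f2, while the KO values lie between -0.63 and 0.23.

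**Figure D5:**
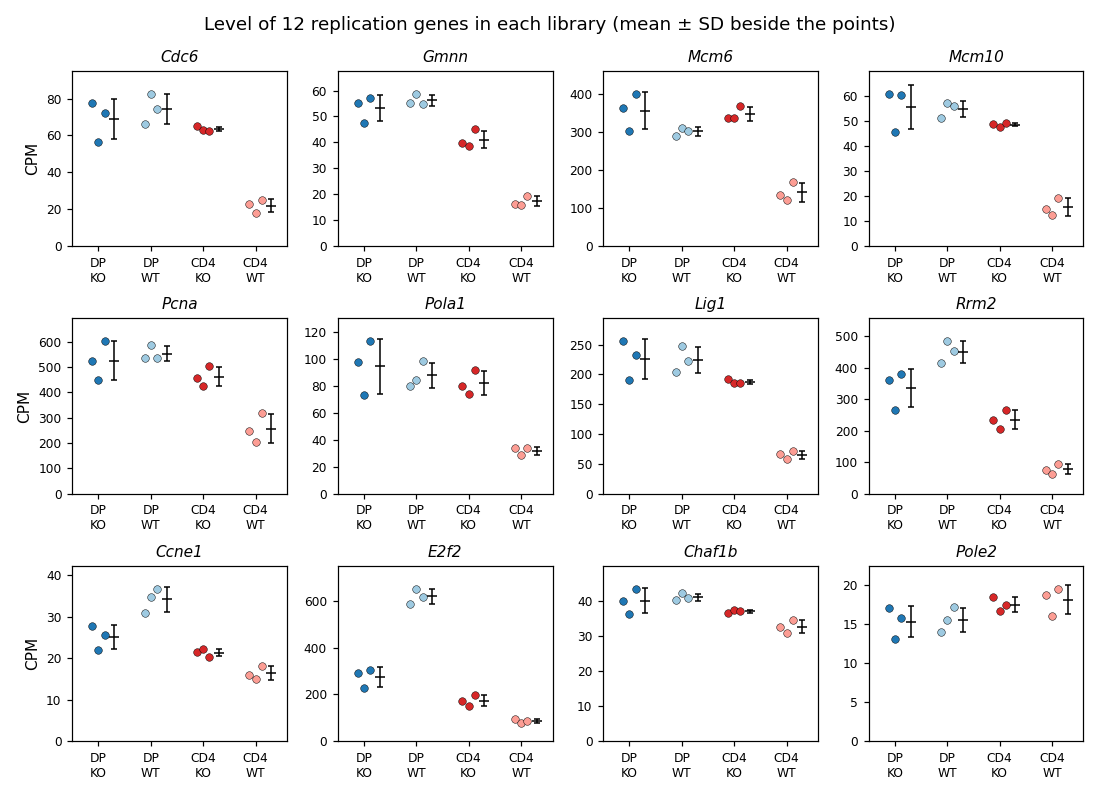
CPM (y axis, from 0) of 12 members in the 4 groups, with 1 point per library and the mean ± SD beside them. For E2f2 the DP KO libraries lie at 228 to 305 CPM and the DP WT libraries at 587 to 653 CPM, and for Pole2 the CD4 KO libraries, at 16.6 to 18.4 CPM, overlap the CD4 WT libraries, at 16.0 to 19.5 CPM.

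Other genes of the pathway, not among the 43, also rose in CD4 KO cells. Of 76 such genes, 75 were tested, and 50 rose and 1 fell (Samhd1, named after its value was seen) in CD4 KO cells. Over all genes tested 20.9% rose and 18.6% fell. The other 24 were not called, and the median log2 fold change was 0.56. By list, the median ran between 0.23 for further G1/S control genes (6 of 16 rose) and 1.03 for further chromatin assembly genes (8 of 9 rose). Dna2, a nuclease of lagging strand maturation, rose by 1.58 ± 0.09, Ticrr, a factor of origin firing, by 1.37 ± 0.12, E2f8, a repressor E2F, by 1.61 ± 0.12, Uhrf1, which recruits maintenance methylation to new DNA, by 1.51 ± 0.11 and Cdca7 by 1.79 ± 0.10. In DP KO cells 13 of the 75 rose and 8 fell, shares near the 16.7% and 14.1% of all genes tested. Of those 13, 11 were among the 17 genes of the further nucleotide list, such as Cad, which starts pyrimidine synthesis (0.95 ± 0.09), and Shmt2, a mitochondrial one-carbon enzyme (0.91 ± 0.07). Several of these genes, like E2f2, rose in CD4 KO cells and fell in DP KO cells. Dck, the deoxycytidine salvage kinase, had 1.22 ± 0.11 in CD4 cells and -0.48 ± 0.09 in DP cells (adjusted p = 0.00431). Uhrf1 fell by 0.35 (adjusted p = 0.0249) and Cdca7 by 0.32 (adjusted p = 0.00970) in DP KO cells. Rpa3, a subunit of the single-strand binding protein named after its values were seen, had 0.72 in CD4 cells and -0.32 in DP cells. Cdkn1a, the inhibitor p21, fell in DP KO cells at a low level, with 0.389, 0.315 and 0.517 CPM in DP KO libraries, against 1.80, 1.88 and 1.79 CPM in DP WT libraries (-2.22 ± 0.30, adjusted p = 0.000498).

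Genes of mitosis, which follow S phase in a dividing cell, were read beside the members. In CD4 KO cells 21 of 22 rose, all but Kif23, against 20.9% of all genes tested, with a median log2 fold change of 1.58. Their geometric mean was 107 ± 12.1 CPM in CD4 KO cells and 36.5 ± 4.98 CPM in CD4 WT cells (SD, n = 3 each). In DP KO cells 4 of the 22 fell (Aurka, Bub1b, Cdc20 and Kif23, named after their values were seen), against 14.1% of all genes tested, with a median of -0.29. The CD4 KO level of the mitosis genes was 66.9% of their DP KO level, where that of the replication genes was 86.0%. Markers of other cell types were also read in each library. Summed B cell markers were 25.8 to 36.1 CPM in CD4 KO, 8.23 to 22.5 CPM in CD4 WT, 22.3 to 28.6 CPM in DP KO and 17.7 to 21.9 CPM in DP WT libraries, and 2 of 8, Cd79b and Cd22 (named after their values were seen), rose in CD4 KO cells. None of the 10 myeloid markers was called there, with summed levels of 20.3 to 60.4 CPM in CD4 KO and 23.4 to 58.8 CPM in CD4 WT libraries. Progenitor markers (double negative and immature single positive stages) rose for 5 of 10 in CD4 KO cells and fell for 1, with summed levels of 557 to 660 CPM in CD4 KO and 416 to 436 CPM in CD4 WT libraries. Of 6 markers of NK and innate cells, 3 were tested and 2 fell, with summed levels of 3.46 to 8.30 CPM in CD4 KO and 30.9 to 52.8 CPM in CD4 WT libraries, and Trdc listed at 0. Of 5 regulatory T cell markers, 3 rose in DP KO cells, and 2 rose and 1 fell in CD4 KO cells. Among them Foxp3, named after its values were seen, was not called in DP cells (1.07 ± 0.46, adjusted p = 0.114) or CD4 cells (0.17 ± 0.20, adjusted p = 0.532). In DP libraries the sum of the 5 markers was 508 to 608 CPM (KO) and 92.1 to 125 CPM (WT). In CD4 libraries it was 634 to 758 CPM (KO) and 246 to 299 CPM (WT). None of the 6 erythroid markers tested was called in either KO comparison, with sums of 69.4 to 336 CPM in DP KO libraries. Markers of mature CD8 cells and stroma are not listed here. The part of these lists in the results was not tested. Transcripts of Trac, Trbc1 and Trbc2 are listed at 0 in every library, so the T cell receptor constant genes give no check of identity here.

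The authors' tables do not state whether reads were counted by strand. Exons of 15 members overlap another gene (for 14 of them on the opposite strand), Pcna and Tyms have pseudogene copies in the tables, and Cdc45 is listed on a further sequence, so reads of these members may be shared. Among the 26 members in none of these classes, 25 rose in CD4 KO cells (median 0.94), against 20.9% of all genes tested. In DP KO cells 0 of the 26 rose and 4 fell, against 16.7% and 14.1% of all genes; Orc1, the member that rose there over all 43, shares exon bases with Gm12743 on the opposite strand. In CD4 WT cells 26 were lower than in DP WT cells (27.1% of all genes), and 24 had a called positive interaction (14.4%).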

How the data were processed

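Poly(A) RNA of sorted thymocytes was sequenced as paired ends, per the labels' protocols. The authors deposited raw read counts per gene, 1 table for DP and 1 for CD4 cells. The submitters' processing notes name mm10, Subread 1.0.1, DESeq2 and R 4.1.5; the strand setting and annotation were not given in the sources used here. Columns were matched to samples by title.

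The members, lists and tests were chosen with earlier results of these data known. Each comparison was fitted to the counts with edgeR 4.0.16 in R 4.3.3 (quasi-likelihood test, TMM scaling, filterByExpr, Benjamini-Hochberg adjustment, called under 0.05). The interaction used all 12 libraries and 4 group means. CPM values use TMM over all 12 libraries; values per kilobase use the length column the authors deposited. Full values are given, per role list, for the members with the smallest adjusted p and the largest change in CD4 cells and the highest mean level over all libraries, and for the 6 with the smallest adjusted p in DP cells; Satb1 and other pathway genes follow the same kind of rule. The fits were tested on simulated data. Alternatives were DESeq2 1.42.0, limma-voom (limma 3.58.1), other scaling and filters, a replicate block and leaving out each library. Replicates of a group differed beyond counting noise (chi-square per degree of freedom 15.2 to 50.8).

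Per the labels, each replicate number is also a batch, and this number was the block. The labels do not say that same-numbered libraries share a mouse. Xist was at 0.82 and 0.267 CPM in DP WT replicates 1 and 2, and at 334 and 285 CPM in CD4 WT replicates 1 and 2. Deviations of unlike numbers correlated at -0.14 to 0.16 (DP KO and WT) and -0.26 to 0.19 (CD4 KO and WT). Between the stages they correlated at -0.24 to 0.06 (WT) and -0.45 to 0.23 (KO). Same-numbered deviations correlated across genes at 0.02, -0.01 and 0.18 (DP KO and WT), 0.12, 0.16 and 0.36 (CD4 KO and WT), 0.23, 0.16 and 0.27 (CD4 and DP in WT) and 0.24, 0.39 and 0.51 (CD4 and DP in KO). Promoter windows came from RefSeq (GRCm38.p6) and exon overlaps from the GENCODE annotation of that build.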

Additional observations from a re-analysis of the deposited data

Results flagged for a closer look

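The KO effect differed between CD4 and DP cells by the interaction test for 40 of the 43 members. The gene of each role list with the smallest adjusted p in that test stood as follows, each as the log2 KO effect in CD4 cells minus that in DP cells. Among the licensing and helicase genes, Gmnn was at 1.38, Mcm5 at 1.11 and Mcm10 at 1.66. Among the fork genes, Rfc4 was at 1.21, Prim1 at 1.24 and Lig1 at 1.55. Tk1 was at 1.47, E2f2 at 2.22 and Chaf1a at 1.46. E2f2 is the only gene of these 9 that was called in both cell types, with a rise in CD4 KO cells and a fall in DP KO cells.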

How the results depend on the processing

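In CD4 KO against WT cells, 40 to 42 members rose under every alternative except a minimum log2 fold change of 1, which left 21; leaving out 1 library gave 40 to 41. In CD4 WT against DP WT cells 41 to 42 were lower, and the interaction was called for 40 to 42 members. With a minimum of 1 it was called for 24, against 2372 of 18431 genes tested, in either direction. In DP cells the members that rose (1) and fell (4) became 2 and 3 with no low-count filter, 0 and 1 with DP WT replicate 3 as the only DP WT library, and 0 and 1 with a minimum log2 fold change of 1; leaving out 1 library gave 0 to 2 that rose and 2 to 4 that fell. The count of members called in CD4 KO against DP KO cells depended most on the processing. In the main fit 3 members were lower, against 5 with DESeq2 size factors, 5 with total counts and 5 in a model over all 12 libraries. It was 9 with DESeq2, 14 with no low-count filter, 22 lower and 1 higher with the replicate block, and 0 with a minimum of 1. Leaving out 1 library gave 0 to 17 members lower. The share of all genes called was not counted for these refits, and the cause was not tested. The replicate block also moved Mcm2 in DP cells (adjusted p = 0.0650) and Gins4 in the interaction (adjusted p = 0.0445) across the threshold. Outside the stage comparison in KO cells, this block changed no other call among the members checked gene by gene. In DP cells only the members with the smallest adjusted p were checked in this way. Calls of genes that are not members were not checked under the block. The interaction of Pole2, 0.01, turned to -0.03 with no low-count filter and ranged between -0.11 and 0.07 when 1 library was left out (below 0 without DP KO replicate 2, DP WT replicates 2 or 3, CD4 KO replicates 1 or 3 or CD4 WT replicate 2), and was not called in any of these fits. With 3 libraries per group, the 95% intervals of the members had a median width of ±0.23 (DP KO against WT) to ±0.36 (interaction) on the log2 scale, which limits the size of difference that could be detected.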
